A study of Rattus norvegicus with 32 samples.

Results

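The Hox genes of the rat uterus were examined in 8 groups of rats that had been exposed to a vehicle, to ethinyl estradiol or to bisphenol A. Members were all genes of the deposited count table whose NCBI gene identifier corresponds to a rat symbol of the form Hoxa, Hoxb, Hoxc or Hoxd followed by a number. There were 26 such genes among the 17327 of the table, out of 39 Hox genes in the RefSeq name table. The other 13 (Hoxa3, Hoxa4, Hoxa5, Hoxa9, Hoxa10, Hoxa11, Hoxb1, Hoxb2, Hoxb6, Hoxc6, Hoxc13, Hoxd8 and Hoxd11) were not analysed here.

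Uterine RNA came from Sprague-Dawley rats of an NCTR colony, collected from year-old adults, with 4 libraries in each group and 32 in all. Controls received the vehicle alone, 0.3% carboxymethylcellulose, which was shared by all groups. Ethinyl estradiol (EE2), an orally active estrogen, was dosed daily at 0.05 and 0.5 µg for each kg of body weight. Bisphenol A (BPA), a plastic monomer with weak estrogenic activity, was dosed in the same unit at 2.5, 25, 250, 2500 and 25000. Dosing was by gavage, to the dams from gestation day 6 and to the pups from postnatal day 1. The labels name no single animals, litters or batches, so a p-value here reflects only how far these libraries scatter, which may be partly technical.

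Hox genes encode homeodomain transcription factors that give cells a position along the body axis. They lie in 4 clusters, A to D, and genes in corresponding places of the clusters form paralog groups numbered from the anterior end. In the developing female tract the posterior genes of the Abdominal-B type are expressed in succession along the Müllerian duct, with Hoxa9 known for the oviduct, Hoxa10 for the uterus, Hoxa11 for the uterus and cervix and Hoxa13 for the upper vagina. Hox proteins bind DNA together with cofactors of the Pbx and Meis families, and several of the genes stay active in the adult endometrium and myometrium.

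The 200 bases before the RefSeq start of transcription (assembly GRCr8) are shown for 6 members, with each CpG dinucleotide in capitals. Hoxd9 and Hoxd10 were counted in every library, Hoxd13 and Hoxa13 were close to 0 in the same tissue, and Hoxa2 and Hoxc4 varied together from library to library.
Hoxd9, chr3:80007806-80008005, plus strand: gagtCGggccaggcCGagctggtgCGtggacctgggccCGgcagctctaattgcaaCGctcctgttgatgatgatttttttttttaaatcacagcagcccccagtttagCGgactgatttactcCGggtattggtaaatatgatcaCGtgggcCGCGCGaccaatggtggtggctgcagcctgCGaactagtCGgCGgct
Hoxd10, chr3:80001747-80001946, plus strand: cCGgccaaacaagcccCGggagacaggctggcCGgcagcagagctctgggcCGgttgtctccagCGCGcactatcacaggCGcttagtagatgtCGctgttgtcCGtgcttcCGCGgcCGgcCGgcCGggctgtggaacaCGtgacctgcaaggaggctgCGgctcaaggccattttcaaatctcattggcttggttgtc
Hoxd13, chr3:79977877-79978076, plus strand: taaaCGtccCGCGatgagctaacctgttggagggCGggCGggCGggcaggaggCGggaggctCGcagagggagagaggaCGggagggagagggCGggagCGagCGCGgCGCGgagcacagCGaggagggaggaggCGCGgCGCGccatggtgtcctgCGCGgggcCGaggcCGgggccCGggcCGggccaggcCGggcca
Hoxa13, chr4:82691702-82691901, minus strand: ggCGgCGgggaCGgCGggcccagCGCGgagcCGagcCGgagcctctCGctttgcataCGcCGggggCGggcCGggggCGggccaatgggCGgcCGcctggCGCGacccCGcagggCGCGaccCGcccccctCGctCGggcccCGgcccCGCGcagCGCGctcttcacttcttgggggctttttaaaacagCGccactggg
Hoxa2, chr4:82595693-82595892, minus strand: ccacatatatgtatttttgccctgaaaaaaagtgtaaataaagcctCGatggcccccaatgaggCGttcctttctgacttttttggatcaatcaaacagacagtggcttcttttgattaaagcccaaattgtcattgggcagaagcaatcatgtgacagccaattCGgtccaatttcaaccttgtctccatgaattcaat
Hoxc4, chr7:136048859-136049058, plus strand: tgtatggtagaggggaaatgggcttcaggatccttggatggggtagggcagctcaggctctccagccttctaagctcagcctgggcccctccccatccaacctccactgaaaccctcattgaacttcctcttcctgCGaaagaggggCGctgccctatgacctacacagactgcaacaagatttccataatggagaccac
RefSeq gave such a window for 12 of the 26 members. The Hoxd13 and Hoxa13 windows held 27 and 30 CpG, a number reached by 4.12% and 2.4% of the 33469 promoters of the table, whose median was 5. Hoxd9 and Hoxd10 had 14 and 16 CpG, reached by 23.1% and 18.7% of promoters. Hoxa2 had 3 and Hoxc4 had 2, below that median. On both strands, the Pbx-Hox composite TGATNNAT was found once before Hoxa2 and in 6.21% of all promoters, and the estrogen response half-site AGGTCA once each before Hoxc4, Hoxd10 and Hoxd4 and in 11.4% of all promoters. Neither TATAAA (10.4% of promoters) nor TGACGTCA (1.46%) occurred in any of the 12 windows. These matches describe the letters of the windows only, and CpG methylation was not measured.

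The Hox clusters also hold microRNA genes, and 6 of them were in the count table, 5 of these from the miR-10 and miR-196 families. The mature sequences of those 5 in RefSeq are shown with the seed, bases 2 to 8, in capitals, since 3 of them share 1 seed.
rno-miR-10a-5p: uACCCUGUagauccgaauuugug
rno-miR-10b-5p: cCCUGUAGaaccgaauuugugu
rno-miR-196a-5p: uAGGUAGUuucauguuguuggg
rno-miR-196b-5p: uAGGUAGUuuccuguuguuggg
rno-miR-196c-5p: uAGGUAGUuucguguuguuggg
The 3 miR-196 members have the same seed, and those of miR-10a and miR-10b differ because the recorded mature form of miR-10b starts further along the stretch they share.

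Total counts ran from 11777809 to 24661856 per library, so that 3 counts, used here as the floor of detection, correspond to 0.122 to 0.255 CPM (the count relative to a library size scaled by TMM). Of all genes, 13312 passed a filter on low counts and were tested with edgeR, and 18 of the 26 Hox genes were among them. In 4 libraries the median correlation with the other libraries was under 0.93: BPA 2.5 libraries 1 and 3, BPA 250 library 1 and BPA 25000 library 3. The tissue label was checked against marker genes: summed markers of smooth muscle (6 of 6 in the table) ran from 10060 to 33200 CPM, of endometrial stroma (6 of 6) from 1584 to 14660 CPM and of endometrial epithelium (8 of 8) from 503 to 2338 CPM. Oviduct and ciliated cell markers (7 of 8 in the table) summed to 2.74 to 4.66 CPM in the controls but to 526 and 383 CPM in BPA 2.5 libraries 1 and 3. Fewer cells of a type and less RNA per cell cannot be told apart in such bulk samples.

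Among the Hox genes analysed, all those of the middle of the clusters reached 1 CPM in most libraries of adult uterus. Of the 26 genes, 17 reached at least 1 CPM in at least 16 libraries. These were all 10 central genes (paralog groups 4 to 8), 3 of 5 anterior genes (groups 1 to 3) and 4 of 11 posterior genes (groups 9 to 13). Each of paralog groups 2 to 10 had a gene at that level, and none of groups 11, 12 and 13 had one among the genes of the table. By cluster they were Hoxa2, Hoxa6 and Hoxa7, then Hoxb3, Hoxb4, Hoxb5, Hoxb7 and Hoxb8, then Hoxc4, Hoxc5, Hoxc8, Hoxc9 and Hoxc10, and finally Hoxd3, Hoxd4, Hoxd9 and Hoxd10. When 1 CPM was asked of all 32 libraries, 10 genes were left. Counts of Hoxa6 and Hoxa7 were even numbers in every library. Whether each read was counted 2 times was not tested. If so, Hoxa7, with a median of 1.86 CPM, would miss the limit of 16 libraries, and not all 10 central genes would reach it.

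**Figure D1:**
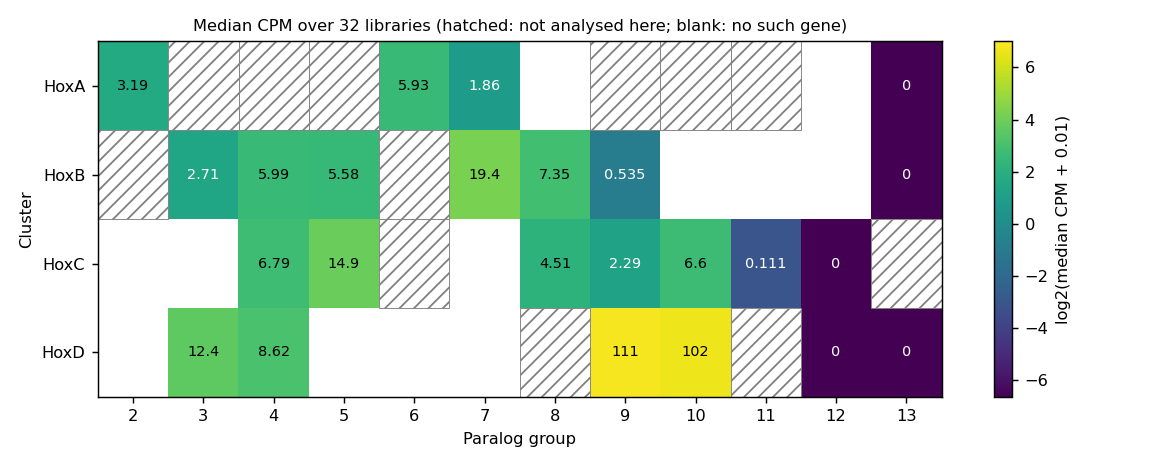
Median level over 32 libraries, in CPM, of the Hox genes of paralog groups 2 to 13, by cluster (vertical axis) and paralog group (horizontal axis), on a log colour scale, with genes that were not analysed left without a value. Values stop at group 10: Hoxc11 had a median of 0.111 CPM, and the genes of groups 12 and 13 had medians of 0.

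The most posterior genes of the table were at or near 0. Hoxb13 and Hoxc12 had no count in any of the 32 libraries, which allows at most 0.122 to 0.255 CPM in a library, counting error only. Hoxa13, the marker of the vaginal end of the duct, had 6 counts in all, spread over 4 libraries, and never exceeded 0.127 CPM. Hoxd13, its paralog in cluster D, had 28 counts in 8 libraries and its highest level was 0.373 CPM, in 1 of the BPA 25000 libraries. Hoxd12 had 38 counts in 13 libraries. Hoxc11, the only gene of paralog group 11 in the table, had 97 counts in 23 libraries and a highest level of 0.635 CPM, and a RefSeq gene overlaps it. Group 11 was thus judged from Hoxc11 alone, since Hoxa11 and Hoxd11 were not analysed here. The squamous markers Krt5 and Krt14, keratins of cervical and vaginal epithelium, reached 266 and 85.1 CPM in EE2 0.05 library 3, in which Hoxa13 stood at 0.0641 CPM and Hoxd13 at 0.128 CPM.

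At the anterior end, Hoxd1 had 3 counts in 2 libraries. In all, 8 of the 26 genes, the 2 without counts included, did not pass the filter, so no test was made for them. Hoxb9 passed it but stayed under 1 CPM in most libraries: its median was 0.535 CPM, and it reached 1 CPM in 3 of 32 libraries.

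Levels of different genes were not ranked, because counts rise with transcript length and no lengths of the build of the files were used. The values below are therefore read within each gene. Reads of overlapping genes are a further limit: Hoxa6, Hoxb3, Hoxb5, Hoxc4, Hoxc5 and Hoxd4 overlap another gene in RefSeq (Hoxc4 and Hoxc5 both overlap Hoxc6), and use of strand in counting is not given in the sources used here, so their values are uncertain. Levels of Hoxa6 and Hoxa7 are also uncertain because all their counts were even numbers.

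Hoxd9 and Hoxd10, the posterior genes of cluster D that passed the filter, were counted in every library. Hoxd9 stood at 106, 132, 127 and 120 CPM in the 4 controls (mean 121 ± 11.4, SD, n = 4). Over all 32 libraries it ran from 53.5 to 166 CPM, with a median of 111 CPM. Its SD of log2 CPM within groups was 0.34, against a median of 0.37 over all tested genes. Hoxd10 was at 123, 113, 156 and 82.0 CPM in controls, and at 31.7 to 156 CPM over all libraries, with an SD within groups of 0.42. In the same cluster, Hoxd3 ran from 7.59 to 23.6 CPM and Hoxd4 from 5.46 to 16.6 CPM, each a span of about 3-fold (3.11 and 3.04).

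In cluster B the 5 genes at 1 CPM spanned 3.29-fold (Hoxb7) to 9.18-fold (Hoxb3) over all libraries. Hoxb7, known from the ureteric bud of the embryonic kidney, was at 26.9, 16.6, 23.2 and 21.9 CPM in controls, and its group means lay between 17.03 CPM in BPA 25 and 22.9 CPM in BPA 2500. Hoxb4, known from blood stem cells, had group means from 4.30 CPM in EE2 0.5 to 6.74 CPM in BPA 2.5. For Hoxb5 they ran from 4.83 CPM in BPA 250 to 8.19 CPM in BPA 2.5, and for Hoxb3 from 1.91 CPM in BPA 250 to 4.43 CPM in BPA 2.5. Hoxb8 was less even within groups, with 15.7, 2.22, 6.74 and 5.92 CPM in controls. All 5 of these genes were counted in every library.

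Cluster C differed from this. Hoxc8, a central gene of thoracic position in the embryo, was at 0.948, 20.6, 1.09 and 17.3 CPM in the 4 controls. Hoxc10, a posterior gene of hindlimb and tail levels, was at 0.690, 20.9, 0.217 and 14.1 CPM in the same libraries. Both genes were low in control libraries 1 and 3 and high in 2 and 4. The other 3 tested HoxC genes divided the controls in the same way: Hoxc4 had 1.81, 11.4, 1.74 and 11.5 CPM, Hoxc5 had 6.98, 38.9, 3.19 and 27.2 CPM, and Hoxc9 had 0.172, 8.51, 0 and 5.71 CPM.

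Over all 32 libraries the highest level of Hoxc8 was 107 times the lowest (0.485 to 52.1 CPM) and that of Hoxc10 104 times (0.217 to 22.6 CPM). Within groups the SD of log2 CPM was 2.33 for Hoxc9, which had 0 counts in 3 libraries, 1.64 for Hoxc10 and 1.58 for Hoxc8. These lay at the 99.7th, 95.9th and 95.1th percentiles of all tested genes. For Hoxd9 the percentile was 45.6. Both Hoxa6 and Hoxa7 of cluster A were uneven as well: Hoxa6 ran from 0 to 25.1 CPM with an SD of 1.72, and Hoxa7 from 0 to 5.46 CPM with an SD of 1.28.

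**Figure D2:**
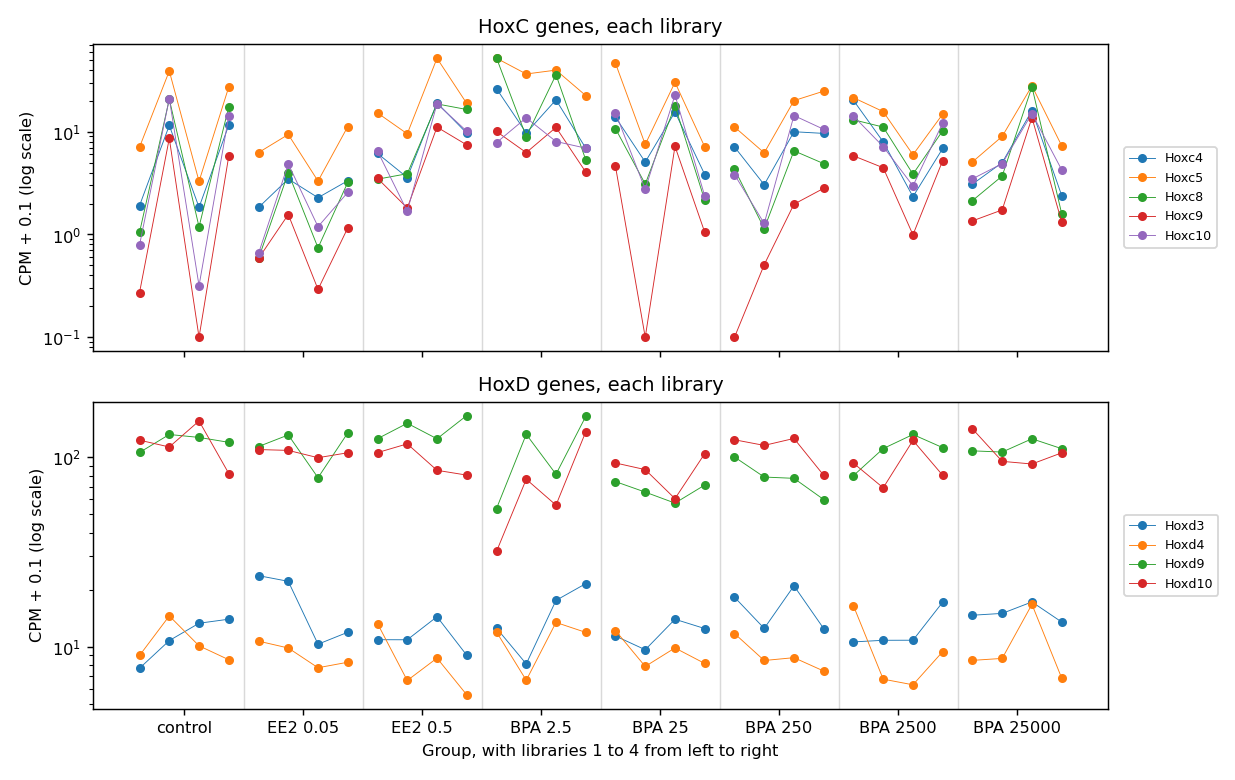
Level of the 5 tested HoxC genes (top) and 4 tested HoxD genes (bottom) in each library, as CPM + 0.1 on a log axis, with libraries 1 to 4 of each group from left to right. Lines join libraries of a group only to guide the eye. The HoxC points rise and fall together and by up to 107-fold in Hoxc8, while Hoxd3 and Hoxd4 span about 3-fold.

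The 5 HoxC genes were correlated across libraries in all 10 pairs. Pearson's r of log2 CPM over 32 libraries ran from 0.70 to 0.93 and Spearman's rho from 0.85 to 0.94. Every one of these pairs had an adjusted permutation p of 0.000205, the smallest the 100000 resamples allow after Benjamini-Hochberg adjustment over 369 relations. With deviations from the group means in place of levels, r ran from 0.72 to 0.93. Without the 2 libraries farthest from the median of the first gene of a pair it ran from 0.66 to 0.92. Leaving out the 4 libraries that stood apart gave 0.76 to 0.91. Hoxc8 and Hoxc10, which overlap no gene in RefSeq, had r = 0.84 (rho = 0.86; without the 2 farthest libraries 0.85). Correlations were looked at after the uneven HoxC levels had been seen, and all of them share the same libraries.

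Hoxa2, an anterior gene of the hindbrain and branchial arches, followed the HoxC genes. Its r was 0.88 with Hoxc4, 0.86 with Hoxc5 and 0.85 with Hoxc8 (adjusted permutation p = 0.000205 for each), and 0.57 and 0.65 with Hoxc9 and Hoxc10. Within groups the value with Hoxc4 was 0.82, and without the 2 farthest libraries 0.87. In all, 11 of 15 pairs between clusters A and C passed an adjusted p of 0.05. Hoxa6 and Hoxa7, which are neighbours, had r = 0.81 (rho = 0.60), which fell to 0.51 without the 2 farthest libraries.

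Fewer pairs passed elsewhere: 7 of 15 within cluster B, 1 of 6 within cluster D, 1 of 30 between B and C and 2 of 18 between A and B. Hoxd10 was the exception in sign, since all 7 negative correlations that passed involved it. Its r was -0.74 with Hoxa2, -0.67 with Hoxc4 and with Hoxc8, and -0.61 with Hoxb3 (adjusted permutation p between 0.000205 and 0.00297). With Hoxa2 it stayed at -0.73 without the 2 farthest libraries and at -0.64 without the 4 libraries that stood apart. Hoxd9 and Hoxd10 were related to each other by r = 0.48 (adjusted permutation p = 0.0264), but rho was 0.29. Without the 2 libraries farthest from the Hoxd9 median r was 0.23, so the relation of levels was weaker without them. With deviations from the group means the relation was stronger, at r = 0.68.

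**Figure D3:**
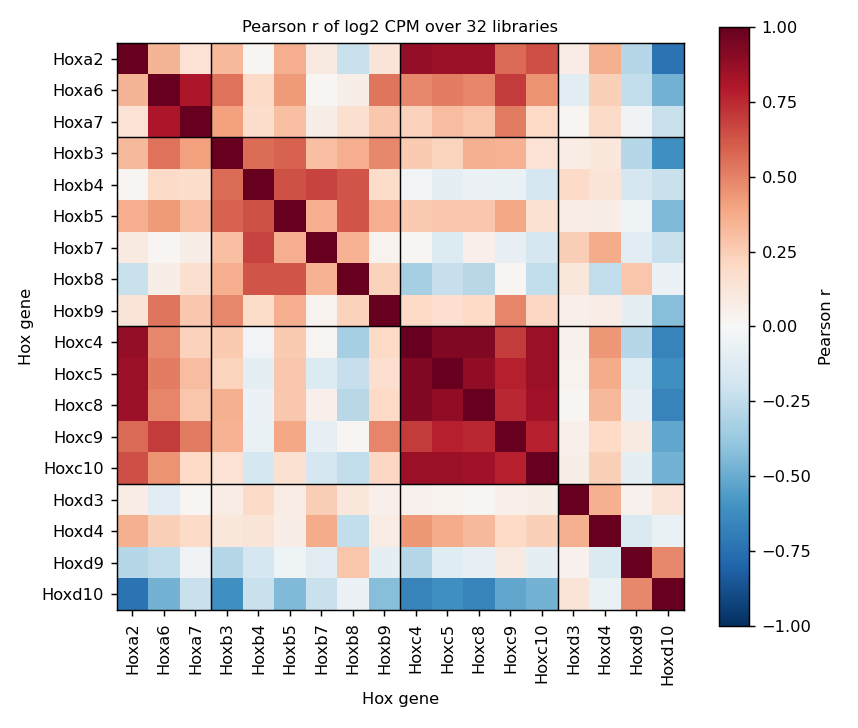
Pearson's r of log2 CPM over 32 libraries for each pair of the 18 tested Hox genes, with black lines between clusters A, B, C and D. The HoxC block is uniformly high (0.70 to 0.93), Hoxa2 joins it, and the Hoxd10 row is negative against both.

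Cell type markers moved with many of these genes: 40 of 216 relations between a Hox gene and a marker list passed an adjusted permutation p of 0.05, and those named here are a selection. Summed endometrial epithelium markers followed Hoxb4 and Hoxb7 (r = 0.73 for both; adjusted permutation p = 0.000205; 0.68 and 0.62 without the 2 farthest libraries). The kidney and urinary tract markers Upk1a, Upk2 and Pax2, the last of which the Müllerian duct also expresses, followed Hoxb3 (r = 0.67), Hoxb5 (0.64), Hoxb7 (0.61) and Hoxb4 (0.55), with adjusted permutation p from 0.000852 to 0.00963. They summed to only 2.54 to 23.3 CPM. Smooth muscle markers followed Hoxd9 (r = 0.58; rho = 0.54; adjusted permutation p = 0.00535; 0.44 without the 2 farthest). Fat markers (5 of 5 in the table, led by Adipoq) followed Hoxc10 (r = 0.47; rho = 0.57; adjusted permutation p = 0.034) and Hoxc8 (r = 0.46; rho = 0.52; adjusted permutation p = 0.0384). In the controls fat markers summed to 10.9, 502, 293 and 310 CPM, so control libraries 1 and 3, low in HoxC genes, also had the 2 lowest sums, although library 3 lay close to library 4. Adipoq itself was never at 0 in the controls. It ran from 8.97 to 497 CPM, close to the range of the sum, so the sum may largely reflect 1 gene. In BPA 2.5, 4 of 5 fat genes had a fold change above 0 (median 2.90 on the log2 scale). The sum there (145 to 412.5 CPM) lay within the control range, so it is a weak measure of fat. Hoxa2 followed mesothelium markers (r = 0.73; rho = 0.61; adjusted permutation p = 0.000369), of which 2 of 4 were in the table and Wt1, which uterine stroma also expresses, made up most of the sum. Ciliated cell markers followed Hoxa2 (r = 0.62; rho = 0.41; adjusted permutation p = 0.00195), and r was 0.38 without the 4 libraries that stood apart. They ran against Hoxd10 (r = -0.69; rho = -0.42; adjusted permutation p = 0.000527; -0.42 without the 2 farthest libraries). Skeletal muscle markers ran against Hoxa2 (r = -0.56; adjusted permutation p = 0.00666). The part of cell composition in the Hox levels was not tested.

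Each exposed group was compared with the same 4 control libraries, so these comparisons are not independent of one another. In the EE2 0.05 group no Hox gene passed, and the largest fitted differences were in cluster C. Hoxc8 was at 0.485, 3.88, 0.641 and 3.12 CPM, with a log2 fold change of -2.30 ± 1.03 (SE; edgeR adjusted p = 0.389). Hoxc10 was at 0.554, 4.76, 1.09 and 2.47 CPM (-2.02 ± 0.98; edgeR adjusted p = 0.427). Both overlapped the controls, whose libraries 1 and 3 were as low. Hoxd3 was at 23.6, 22.03, 10.2 and 11.8 CPM (0.58 ± 0.28; edgeR adjusted p = 0.434). The count was 0 of 18 against 0.0451% of all tested genes (0.0376% higher, 0.00751% lower), and 0 of 18 had no overlap, against 11.4%. At an unadjusted p under 0.05 it was 2 of 18 against 11.5%, and DESeq2 and limma voom also called 0. Squamous epithelium markers (8 of 9 in the table) summed to 12.9, 7.39, 447 and 156 CPM in this group and to 8.91 to 25.4 CPM in controls, and 3 of 8 passed as higher. Their part in the Hox values was not tested.

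At EE2 0.5 the count was again 0 of 18, against 0.556% of all tested genes (0.263% higher, 0.293% lower), with 0 of 18 without overlap (12.8% of all genes), 0 at an unadjusted p under 0.05 (15.6% of all genes) and 0 by DESeq2 and limma voom. Smallest p-values were those of Hoxb4 (4.14, 3.93, 4.24 and 4.91 CPM; log2 fold change -0.50, edgeR adjusted p = 0.544), Hoxa2 (2.10, 2.98, 8.42 and 4.81 CPM; 0.88, adjusted p = 0.571) and Hoxb7 (21.9, 13.9, 16.9 and 18.9 CPM; -0.31, adjusted p = 0.644). The 95% interval for Hoxb4, from -1.25 to 0.25, includes both no change and a halving on the log2 scale.

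Hoxa2 was higher in the lowest BPA dose. It was at 23.6, 4.00, 16.6 and 3.12 CPM in the BPA 2.5 libraries, against 1.98, 3.18, 1.014 and 3.76 CPM in controls. The groups overlapped: libraries 1 and 3 were far above every control, and libraries 2 and 4 were near the highest control. The log2 fold change was 2.25 ± 0.69 (SE; edgeR adjusted p = 0.0339), with 4 of 4 libraries above the control mean. This was 1 of 18 Hox genes (5.56%), below the 11.4% of all tested genes that passed (7.06% higher, 4.39% lower). None of the 18 was without overlap (12.2% of all genes), and 4 had an unadjusted p under 0.05 (26.8%). By DESeq2 the count was also 1, and by limma voom with sample weights it was 8. Shares of all genes that passed are those of edgeR throughout. Counts by DESeq2 and limma voom are given without such a share and cannot be read against the edgeR share.

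The Hoxa2 call rested on the 2 BPA 2.5 libraries that stood apart. Without both of them the log2 fold change was 0.51 (edgeR adjusted p = 0.82). It also failed the threshold without library 1 or library 3 of the group (adjusted p = 0.165 and 0.0895), without control library 1, 2 or 3 (0.0747, 0.0647 and 0.121), and with only the 2 groups in the fit (0.115). Those same libraries carried the ciliated markers given above, at 526 and 383 CPM against 5.003 and 5.35 CPM in BPA 2.5 libraries 2 and 4. All 7 ciliated genes passed as higher in this group, among them Foxj1, the master regulator of motile cilia, at 95.7, 0.308, 73.5 and 0.892 CPM. Squamous epithelium markers summed to 29.8, 47.2, 36.8 and 42.1 CPM in the 4 libraries, above the 8.91 to 25.4 CPM of controls, with 3 of 8 passing as higher. Of the kidney and urinary tract markers 1 of 2 tested passed as higher. The part of these cells in the Hoxa2 difference was not tested.

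Libraries 1 and 3 of BPA 2.5 were extreme for other Hox genes as well. They held the 2 highest levels of Hoxc8 in the series (52.1 and 35.7 CPM) and of Hoxc4 (26.1 and 20.3 CPM), and the 2 lowest of Hoxd10 (31.7 and 55.8 CPM). For Hoxd9, library 1 had the lowest level of the series (53.5 CPM) and library 3 was at 81.3 CPM, both below every control. Hoxd10 was at 76.5 and 136 CPM in libraries 2 and 4, inside or just below the control range of 82.0 to 156 CPM. For the group its log2 fold change was -0.66 ± 0.28 (edgeR adjusted p = 0.123), and it passed when library 4 was left out (-1.12, adjusted p = 0.0047). Hoxb3 was at 7.66, 2.92, 4.66 and 2.48 CPM (0.99 ± 0.41; edgeR adjusted p = 0.111). Overall 14 of 18 fold changes were above 0, with a median of 0.56 on the log2 scale against 0.05 over all tested genes.

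**Figure D4:**
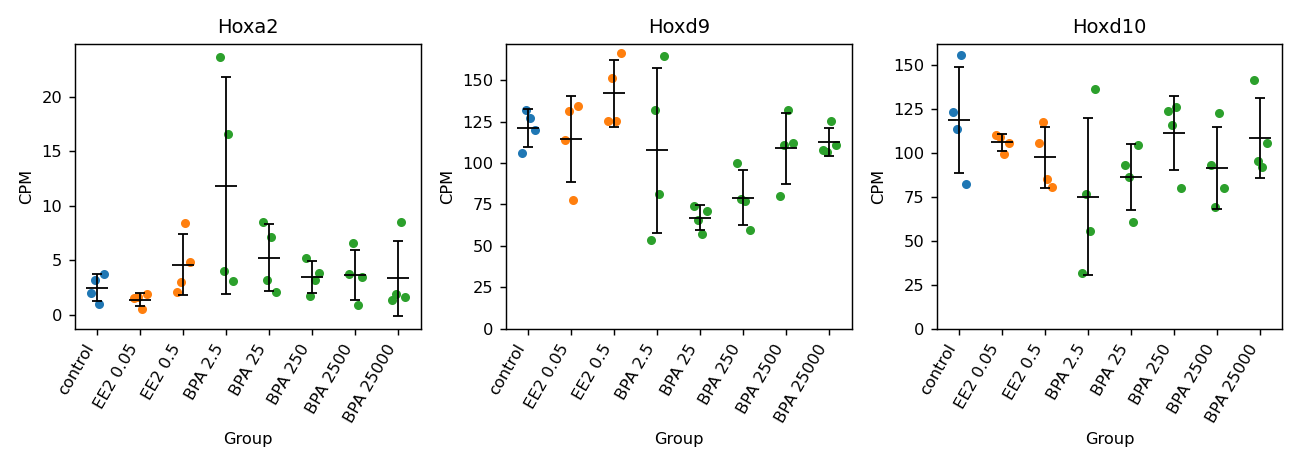
Level of Hoxa2, Hoxd9 and Hoxd10 in CPM by group, with each library as a point and the mean ± SD (n = 4) of each group. Hoxa2 is raised by 2 BPA 2.5 libraries (23.6 and 16.6 CPM), and all 4 BPA 25 libraries of Hoxd9 (57.2 to 74.3 CPM) lie under the lowest control at 106 CPM.

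Hoxd9 fell in BPA 25. The 4 libraries were at 74.3, 65.4, 57.2 and 71.3 CPM (mean 67.0 ± 7.54, SD, n = 4) against 106 to 132 CPM in controls, and the groups did not overlap. The log2 fold change was -0.86 ± 0.23 (SE; 95% interval -1.33 to -0.38; edgeR adjusted p = 0.0491), with 0 of 4 libraries above the control mean. It was 1 of 18 Hox genes (5.56%) where 1.92% of all tested genes passed (0.954% higher, 0.969% lower), and 1 of 18 without overlap where 20% of all genes had none. At an unadjusted p under 0.05 it was likewise 1 of 18, against 24.4%. DESeq2 and limma voom each called Hoxd9 alone as well (adjusted p = 0.0159 and 0.00143).

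The adjusted p of Hoxd9 was at the edge of the threshold. It rose above 0.05 when any 1 of the 4 controls or 4 BPA 25 libraries was left out (adjusted p from 0.0545 to 0.164, log2 fold change from -0.91 to -0.79), with DESeq2's size factors (0.0526) and without the filter (0.0572). Without the 4 libraries that stood apart, none of which is in either group, it was 0.00943. Smooth muscle markers, which followed Hoxd9 over all libraries, summed to 12200 to 17760 CPM in BPA 25 and to 17210 to 33200 CPM in controls. All 6 had a fold change below 0, with a median of -0.87 on the log2 scale, beside -0.86 for Hoxd9. Of these, 5 had an unadjusted p under 0.05, and 0 passed the edgeR adjusted threshold. Ciliated markers summed to 28.8 to 52.3 CPM in BPA 25. Their part in the Hoxd9 difference was not tested. Hoxd10 in BPA 25 was at 93.2, 86.0, 60.4 and 104 CPM (-0.46 ± 0.28; edgeR adjusted p = 0.306), and Hoxa2 at 8.48, 3.20, 7.10 and 2.05 CPM (1.06 ± 0.68; adjusted p = 0.339).

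In BPA 250 Hoxd9 was again below every control, at 100.3, 78.6, 77.3 and 59.7 CPM, but missed the threshold (log2 fold change -0.62 ± 0.23; edgeR adjusted p = 0.0809). The count was 0 of 18 against 8.79% of all tested genes (4.44% higher, 4.35% lower), with 1 of 18 at an unadjusted p under 0.05 (28.6% of all genes) and 1 of 18 without overlap (19.3%). DESeq2 called 0 and limma voom called Hoxd9. Hoxd9 also passed with only both groups in the fit (adjusted p = 0.0417) and without the 4 libraries that stood apart (0.0215). The latter fit leaves out BPA 250 library 1, at 100.3 CPM the highest of this group and the nearest to the controls. Summed endometrial stroma markers were at 11820 to 14660 CPM in this group against 3517 to 6212 CPM in controls, with 2 of 6 passing as higher, and their part was not tested. Smooth muscle markers summed to 16060 to 20470 CPM, with 6 of 6 fold changes below 0 and a median of -0.59 beside -0.62 for Hoxd9. Of these, 3 had an unadjusted p under 0.05 and 0 passed the adjusted threshold. Hoxd3 was at 18.1, 12.4, 20.9 and 12.3 CPM (0.49 ± 0.28; edgeR adjusted p = 0.253). Hoxa7 was at 0, 0.726, 3.56 and 0.462 CPM (-1.02 ± 0.74; adjusted p = 0.373), and passed without library 3 (-2.47, adjusted p = 0.0446). Of the 18 fold changes 15 were below 0, with a median of -0.30 against -0.02 over all tested genes. Fold changes of all 6 smooth muscle markers were below 0 in the other exposed groups as well. Their medians were -0.64 in EE2 0.05, -0.31 in EE2 0.5, -0.62 in BPA 2.5, -0.41 in BPA 2500 and -0.51 in BPA 25000. In the same order, the Hoxd9 log2 fold changes were -0.08, 0.23, -0.17, -0.16 and -0.11. The part of smooth muscle in the Hoxd9 values was not tested.

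No Hox gene passed at the 2 highest BPA doses. In BPA 2500 the count was 0 of 18 against 0% of all tested genes, with 0 at an unadjusted p under 0.05 (10.2% of all genes), 0 without overlap (7.97%) and 0 by DESeq2 and limma voom. Hoxb3 (3.09, 3.55, 2.74 and 4.32 CPM; log2 fold change 0.62, edgeR adjusted p = 0.639), Hoxb9 (0.617, 0.853, 0.128 and 0.960 CPM; 1.13, adjusted p = 0.668) and Hoxd10 (93.0, 68.9, 123 and 80.2 CPM; -0.38, adjusted p = 0.687) had the smallest p-values.

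In BPA 25000 the count was 0 of 18 against 2.32% (1.36% higher, 0.962% lower), with 2 of 18 at an unadjusted p under 0.05 (19.3% of all genes), 0 by DESeq2 and 1, Hoxb5, by limma voom. Hoxb9 was at 1.08, 0.902, 1.37 and 0.694 CPM, above all controls (0, 0.222, 0.362 and 0.557 CPM). Its log2 fold change was 1.77 ± 0.79 (edgeR adjusted p = 0.215), from 16 counts in the controls and 79 in the exposed group. It was the 1 gene of 18 without overlap, where 13.3% of all tested genes had none. Hoxb5 was at 3.38, 9.19, 12.7 and 6.83 CPM (0.71 ± 0.34; edgeR adjusted p = 0.241), and Hoxa7 at 0.953, 1.69, 0.658 and 0.427 CPM (-1.31 ± 0.74; adjusted p = 0.334).

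BPA 25000 library 3 was high in cluster C. Hoxc8 was at 2.04, 3.61, 27.2 and 1.49 CPM, Hoxc9 at 1.26, 1.63, 13.6 and 1.23 CPM and Hoxc10 at 3.38, 4.79, 14.9 and 4.16 CPM. That library also had the highest fat markers of its group (520 CPM against 80.7 to 247) and the lowest endometrial stroma markers (1584 CPM against 7623 to 8831). The fat sum may largely reflect Adipoq, as in the controls.

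**Figure D5:**
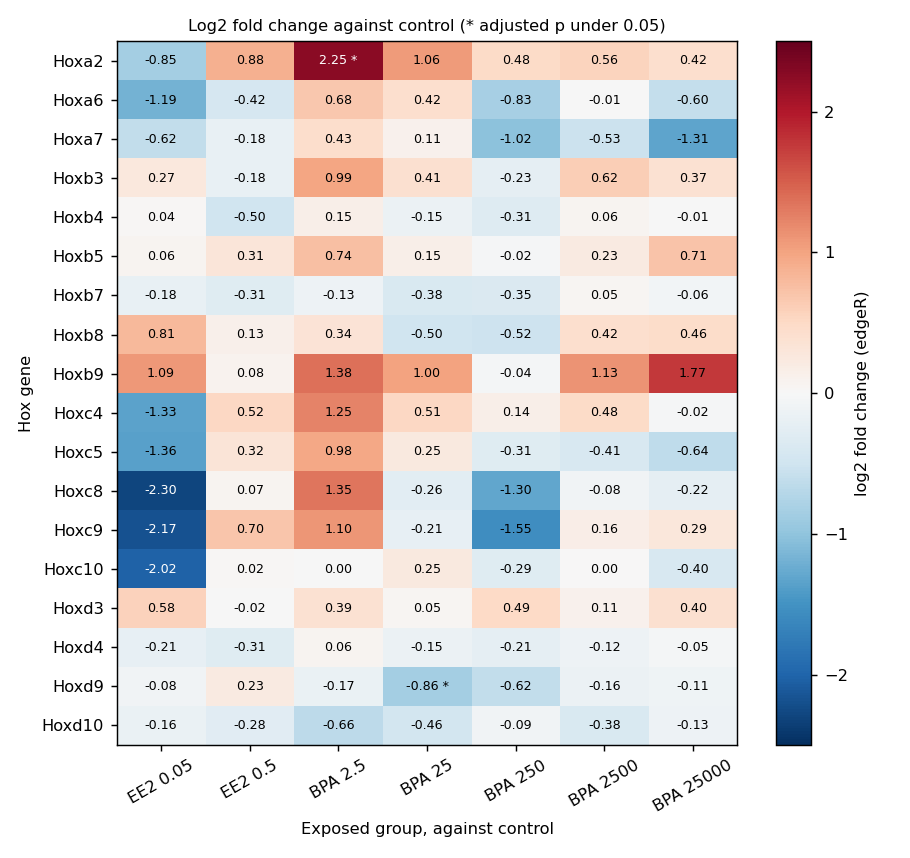
Log2 fold change against control (edgeR) of the 18 tested Hox genes in each of 7 exposed groups, with an asterisk where the adjusted p was under 0.05. Hoxa2 in BPA 2.5 (2.25) and Hoxd9 in BPA 25 (-0.86) carry the 2 asterisks, and the HoxC genes reach -2.30 in EE2 0.05 without one.

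Hox genes were also tested over several groups at once. In the F test over all 7 exposed groups, Hoxd9 (F = 4.39, edgeR adjusted p = 0.0117) and Hoxa2 (F = 3.72, adjusted p = 0.0237) passed, 2 of 18 (11.1%) where 31.7% of all tested genes did. At an unadjusted p under 0.05 it was also 2 of 18, against 45.1%. DESeq2 called the same 2 and limma voom 10. Hoxd9 passed in every alternative fit (adjusted p up to 0.0388), and without the 4 libraries that stood apart its adjusted p was 0.000648. Hoxa2 did not pass without BPA 2.5 library 1 or 3 (0.147 and 0.0873) or without both (0.307). By group, Hoxd9 had its highest mean in EE2 0.5 (142 ± 20.2 CPM, SD, n = 4) and its lowest in BPA 25 and BPA 250 (67.0 ± 7.54 and 79.0 ± 16.6 CPM). Means of the controls, EE2 0.05, BPA 2.5, BPA 2500 and BPA 25000 lay between 108 and 121 CPM. The BPA 2.5 mean covers a split (SD 49.8). Its libraries 1 and 3 were at 53.5 and 81.3 CPM, and libraries 2 and 4 at 132 and 164 CPM.

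For the mean of the 5 BPA doses against control the count was 0 of 18 (1.34% of all tested genes, 0.578% higher and 0.759% lower; 1 at an unadjusted p under 0.05, against 18.7%), with 0 by DESeq2 and 1 by limma voom. Hoxd9 had a log2 difference of -0.38 ± 0.17 there (edgeR adjusted p = 0.226). Both EE2 doses averaged gave 0 of 18 against control (0.0676% of all genes, 0.0376% higher and 0.03% lower; 0 at an unadjusted p under 0.05, against 15%), and 0 by DESeq2 and limma voom. A linear trend on log10 dose, fitted to the 5 BPA groups, gave 0 of 18 (4.62% of all genes, 1.2% higher and 3.42% lower; 3 at an unadjusted p under 0.05, against 22.8%), with 0 by DESeq2 and 8 by limma voom. Hoxa2 had a slope of -0.42 ± 0.15 log2 units per unit of log10 dose (edgeR adjusted p = 0.1005), and passed without BPA 2.5 library 4 or without BPA 25000 library 3. The BPA mean against the EE2 mean gave 0 of 18 (0.841% of all genes, 0.413% higher and 0.428% lower; 2 at an unadjusted p under 0.05, against 14.3%), and 1, Hoxd9, by DESeq2 and limma voom. Hoxd9 was lower under BPA by 0.45 ± 0.13 on that scale (log2 difference -0.45, edgeR adjusted p = 0.0976).

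Cofactors of Hox proteins were counted in all groups. Meis1, a TALE homeodomain partner, was at 109 ± 19.5 CPM in controls (SD, n = 4) and 89.4 to 111 CPM elsewhere. Meis2 was at 157 ± 40.5 CPM in controls and 205 to 297 CPM in the exposed groups, and did not pass in any comparison with control (log2 fold change 0.92 ± 0.32 in EE2 0.5, edgeR adjusted p = 0.146). Of the cofactor list (8 of 9 members tested), 0 passed against control in any exposed group, and Pknox1 and Pknox2 passed the F test, 2 of 8 (25%) against 31.7% of all tested genes.

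Regulators of Hox chromatin moved in few comparisons. Of 13 tested members, Men1, the menin partner of the MLL methyltransferase, and Cbx7, a Polycomb reader, rose in BPA 2.5 (log2 fold change 0.39 and 0.94, edgeR adjusted p = 0.0369 and 0.0143), 2 of 13 (15.4%) against the 11.4% of all genes. In BPA 250 only Bmi1, a Polycomb ring finger protein, rose (0.63, adjusted p = 0.0327), 1 of 13 (7.69%) against 8.79% of all tested genes. In the F test 8 of 13 passed (Men1, Eed, Ring1, Rnf2, Bmi1, Cbx2, Kdm6b and Ctcf), 61.5% against 31.7% of all tested genes, a description with no test of the list.

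Patterning genes of the Müllerian duct were measured beside the Hox genes (23 of 24 tested). Emx2, a homeobox gene of the urogenital tract known as a target of Hoxa10, was at 125 ± 12.5 CPM in controls and rose to 181 ± 24.9 CPM in BPA 250 (SD, n = 4; log2 fold change 0.53, edgeR adjusted p = 0.0265). Its means in BPA 2500 and BPA 25000 were 102.5 and 92.1 CPM (-0.29 and -0.44, adjusted p = 0.508 and 0.0928). Wnt7a, an epithelial ligand that maintains uterine Hox expression in the mouse, ranged from 2.15 to 36.2 CPM among controls and did not pass in any comparison. Nr2f1, a nuclear receptor, rose in BPA 250 (1.39, edgeR adjusted p = 0.0155). In BPA 25000 Wnt5a, a stromal ligand of tract growth, fell (-1.40, adjusted p = 0.0367) and Lfng, a modifier of Notch, rose (0.71, adjusted p = 0.0376). The counts were 3 of 23 (13%) in BPA 250 and 2 of 23 (8.7%) in BPA 25000, against 8.79% and 2.32% of all tested genes. In the F test 6 of 23 (26.1%) passed, below the 31.7% of all genes (Emx2, Lhx1, Pax8, Hand2, Nr2f1 and Lfng). Pax8 also passed between the BPA and EE2 means (0.92, adjusted p = 0.0466).

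Of 13 tested endometrial genes linked to Hoxa10 in earlier work, Igfbp1, a decidual binding protein of insulin-like growth factors, passed as higher in 3 groups. Its control level was 0.274 ± 0.257 CPM, against 6.47 ± 4.00 in BPA 2.5, 27.1 ± 18.9 in BPA 250 and 50.5 ± 57.3 CPM in BPA 25000 (SD, n = 4; log2 fold change 4.49, 6.56 and 7.46, edgeR adjusted p = 0.0251, 0.00862 and 0.00956). Ptger3, a prostaglandin E receptor, rose in BPA 250 and BPA 25000 (1.92 and 2.12, adjusted p = 0.033 and 0.0426), and Ptger4 in BPA 2.5 (1.10, adjusted p = 0.0127). Pgr, the progesterone receptor, fell in BPA 2.5 (-1.08, adjusted p = 0.045). In BPA 250 Nt5e and Cdkn1b rose (1.10 and 0.84, adjusted p = 0.0449 and 0.0197) and Fkbp4, a progesterone receptor chaperone, fell (-0.98, adjusted p = 0.0248). The list's counts were 3 of 13 (23.1%) in BPA 2.5, 5 of 13 (38.5%) in BPA 250 and 2 of 13 (15.4%) in BPA 25000, against 11.4%, 8.79% and 2.32% of all tested genes. In the F test 4 of 13 (30.8%) passed, against 31.7%. Hoxa10 itself was not analysed here.

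Non-coding RNAs of the clusters did not pass in any comparison (5 of 7 tested). Hoxa11-as, the antisense transcript of Hoxa11, was at 36.6, 19.7, 37.1 and 19.6 CPM in controls, and at 12.1, 20.3, 18.5 and 18.6 CPM in BPA 250 (log2 fold change -0.70, edgeR adjusted p = 0.236). Without knowledge of strand, reads of Hoxa11 and of this partner cannot be told apart. The host transcripts counted at the miR-196b gene, which lies in cluster A, were at 3.03 ± 1.21 CPM in controls and 13.4 CPM in BPA 250 library 1. The genes of miR-10a, miR-196a and miR-196c stayed at or below 1.16 CPM in every library, and the labels describe no small RNA libraries.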

How the data were processed

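Uterine RNA was extracted with a kit for lipid-rich tissue and sequenced by Illumina protocols, per the labels' protocols. The authors deposited 1 table of raw counts per gene for 32 libraries. The submitters' processing notes name bcl2fastq, TopHat, edgeR and build rn5. For versions, annotation and strand the sources used here give nothing. Identifiers were matched by gene ID to RefSeq symbols of assembly GRCr8 (17167 of 17327 genes), used for names. RefSeq promoters and microRNAs of GRCr8 are printed with that build, and its gene positions were used only to list overlaps.

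Counts were filtered with filterByExpr (minimum count of 10, total of 15; 13312 genes kept), scaled by TMM and fitted with edgeR 4.0.16 in R 4.3.3. The quasi-likelihood model had 1 mean per group over all 8 groups (24 residual degrees of freedom), and p-values were adjusted by Benjamini-Hochberg over all tested genes at 0.05, in 12 comparisons. Each SE was derived from the test, as the absolute log2 fold change divided by the square root of F. The 95% intervals used this SE and the 24 residual degrees of freedom, so they are approximate. DESeq2 1.42.0, limma 3.58.1 (voom) and further settings served as alternatives. The depth of 11777809 to 24661856 counts per library sets the floor of 3 counts, and the floor covers counting error only. No libraries of a group agreed within counting noise. Steps were tested on simulated data.

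Levels are CPM on TMM-scaled library sizes, and correlations used log2 CPM with a pseudocount of 0.5. Correlations of 153 Hox pairs and 216 pairs of Hox genes with marker lists were tested by two-sided permutation with 100000 resamples. Named genes were all Hox genes, with group values for those at 1 CPM in 16 libraries or passing a test, the 3 smallest p-values per exposed group, members of 5 lists that passed, and Meis1, Meis2, Wnt7a and Emx2. Members and lists were chosen with earlier results of these data known. Results on some genes of these lists are not reported here. No level was set per length, since no lengths of the rn5 build were used.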

Additional observations from a re-analysis of the deposited data

Results flagged for a closer look

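In 10 of 144 combinations of a tested Hox gene and a group, 1 library lay far from the other 3 (a gap beyond Dixon's 95% critical value for 4 samples, which chance alone gives in about 1 of 20 groups). BPA 25000 library 3 accounted for 5 of them, all high: Hoxa2 at 8.50 CPM (others 1.34 to 1.86), Hoxa6 at 12.95 CPM (2.77 to 4.17), Hoxc8 at 27.2 CPM (1.49 to 3.61), Hoxc9 at 13.6 CPM (1.23 to 1.63) and Hoxc10 at 14.9 CPM (3.38 to 4.79). This is 1 of the 4 libraries that stood apart over all genes.

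The other 5 were spread over 5 groups. Hoxc10 was high in BPA 2.5 library 2 at 13.55 CPM (others 6.82 to 7.93), Hoxb8 in EE2 0.5 library 1 at 12.1 CPM (6.84 to 7.49) and Hoxd3 in BPA 2500 library 4 at 17.1 CPM (10.5 to 10.7). Hoxa7 was low in BPA 25 library 2 at 0.817 CPM (2.93 to 3.20), and Hoxb4 in EE2 0.05 library 4 at 4.17 CPM (6.73 to 7.12).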

How the results depend on the processing

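No result changed direction. Hox genes passing in BPA 25 numbered 0 with DESeq2's size factors and 0 without the filter (1 as reported). DESeq2 gave 1 for BPA against EE2. Limma voom gave 8 in BPA 2.5, 1 in BPA 250, 1 in BPA 25000, 10 in the F test, 1 for the BPA mean, 8 for the trend and 1 for BPA against EE2. The share of all genes called by limma voom is not given here. A threshold of 0.1 gave 1 in BPA 250 and 1 for BPA against EE2. Fits of only the compared groups gave 0 in BPA 2.5 and 1 in BPA 250. Without the 4 libraries that stood apart (chosen after seeing the data) there were 0 in BPA 2.5, 1 in BPA 250, 1 in the F test and 1 for BPA against EE2, and without both of those in BPA 2.5 there were 0 in BPA 2.5 and 1 in the F test. Leaving out 1 library at a time gave 0 to 2 in BPA 2.5, 0 in BPA 25 for each of the 8 libraries, 0 to 1 in BPA 250, 1 to 2 in the F test, 0 to 2 for the trend and 0 to 1 for BPA against EE2. Hox genes at 1 CPM numbered 16 to 18 under 3 other limits and 10 when all 32 libraries had to reach it. The cause of these changes was not tested. No paired analysis was possible because the labels number the libraries in 1 series and share no replicate numbers between groups. With 4 libraries a group, wide intervals limit the uneven HoxC genes, and counts too low to test limit paralog groups 11 to 13.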
